A study of Homo sapiens with 6 samples.

Results

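GAB1, GAB2, GAB3, GRB2, SOS1, SOS2 and SHC1 encode the GAB docking proteins and the adaptors and exchange factors that couple receptors to RAS. They were taken by symbol from the deposited table, which held all 7 among its 23250 genes. GAB1 was chosen by its fold change in this comparison, where it was among the largest rises in the mutant rescue, so its difference between the rescues is given as a description with no test. The other 6 were listed as its paralogues and partners by family and role.

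The data are RNA sequencing counts from OCI-LY1, an established line from a human diffuse large B cell lymphoma. Every culture was transfected with siRNA against BCL6, the transcriptional repressor that germinal centre B cells depend on. The wild-type rescue (3 libraries) then received ectopic wild-type BCL6, and the mutant rescue (3 libraries) received ectopic BCL6 mutated in its second repression domain, RD2. Both groups therefore carry the depletion and an introduced BCL6, no library without a rescue is part of the comparison, and the labels give neither dose nor time. All libraries come from 1 cell line, and the labels do not say whether libraries of a group came from separate cultures, so p-values reflect variation among these libraries that may be purely technical.

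In this pathway an activated receptor is phosphorylated on tyrosine and binds the adaptor GRB2, directly or through SHC1. GRB2 brings along the exchange factors SOS1 and SOS2, which load RAS with GTP, and RAS then activates the RAF, MEK and ERK kinases. GAB proteins are docking platforms that bind GRB2 and, once phosphorylated, recruit the phosphatase SHP2 (encoded by PTPN11) and phosphoinositide 3-kinase. In B cells GAB1 and GAB2 have been linked to signalling from the antigen receptor.

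Library totals ranged from 26298456 to 27574867 counts. BCL6 itself ranged from 16998 to 19069 counts with wild-type rescue and from 13726 to 14166 with mutant rescue, and the depleted and introduced transcripts cannot be told apart in these gene totals. All 8 B cell markers examined averaged at least 1 CPM, summing to 3490 to 3520 CPM in the wild-type rescue and 3260 to 3350 CPM in the mutant rescue. CPM are counts scaled to library size after TMM scaling, the trimmed mean of M-values. The T cell, myeloid, fibroblast and erythroid marker lists each summed to less than 1 CPM in every library, and CD3E, CD2, TRAT1, MPO, COL3A1 and HBA2 were at 0. In bulk RNA, a change in the number of cells of a kind and in RNA per cell cannot be told apart.

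GAB1 went from a trace to a low but plainly detected level. It had 9, 4 and 8 counts in wild-type rescue libraries 1, 2 and 3, and 151, 146 and 138 counts in mutant rescue libraries 1, 2 and 3. The lowest mutant library thus lay far above the highest wild-type library. In scaled units this was 0.258 ± 0.0927 against 5.42 ± 0.226 CPM (mean ± SD, n = 3 each), a ratio of 21.0. With 21 counts in the wild-type rescue in all against 435 in the mutant rescue, counting error alone leaves a 95% interval of 13.6 to 34.2 for that ratio. The interval makes no allowance for the choice of GAB1 by its rise and is not evidence for that rise. On the log2 scale the fitted difference was 4.36, the rank of 15 from the top among 12406 tested genes. MGC12916 (4.42) stood just above it in this order and LINC00162 (4.29) just below. GAB1 passed the filter on low counts through the mutant rescue alone, as its wild-type libraries were below the level that the filter asks for.

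GAB2, a paralogue with a wide role in immune cells, rose 2.27-fold. Its counts were 111, 111 and 102 in wild-type and 235, 266 and 231 in mutant libraries, with no overlap between the groups. The level went from 4.01 ± 0.256 to 9.12 ± 0.685 CPM (n = 3 each), a log2 difference of 1.18 (SE 0.102, 95% interval 0.97 to 1.40; edgeR quasi-likelihood test, adjusted p = 1.64e-09, with Benjamini-Hochberg adjustment across the tested genes). GAB3, the haematopoietic paralogue, rose 1.94-fold, with 208, 137 and 193 counts across the wild-type libraries, and 360, 339 and 333 across the mutant libraries. Wild-type library 2 was the lowest for GAB3, and the groups did not overlap. GAB3 went from 6.64 ± 1.23 to 12.9 ± 0.503 CPM (log2 difference 0.95, SE 0.103, 95% interval 0.73 to 1.17; edgeR, adjusted p = 9.11e-08). GAB4, the remaining relative in the table, had 1 count in all 6 libraries together and was not tested.

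GAB2 and GAB3 were therefore both higher in the mutant rescue, where 35.4% of all tested genes were called higher. GAB1, chosen for its rise, is not counted with them, and the 3 genes rose by different amounts. To compare them with each other, CPM were divided by the length in kilobases of each gene's longest annotated transcript. In these units the wild-type rescue held 1.41 ± 0.261 of GAB3, 0.659 ± 0.042 of GAB2 and 0.0324 ± 0.0116 of GAB1. The mutant rescue held 2.72 ± 0.107 of GAB3, 1.50 ± 0.112 of GAB2 and 0.679 ± 0.0283 of GAB1. With this length the order was GAB3, GAB2, GAB1 in both rescues, with no overlap between neighbours. The order turns with the median length of each gene's annotated transcripts, which gives GAB2 7.06, GAB3 2.32 and GAB1 0.368 CPM per kilobase in the wild-type rescue, and GAB2 16.0, GAB1 7.71 and GAB3 4.48 in the mutant rescue. Which paralogue was the most abundant is therefore not settled by these gene totals. The totals and shares that follow use the longest transcript. The family total was 2.31, 1.83 and 2.15 CPM per kilobase in wild-type and 4.99, 4.98 and 4.72 in mutant libraries. GAB1 made up 1.78%, 1.05% and 1.71% of that total in wild-type and 14.1%, 13.7% and 13.7% in mutant libraries. The GAB3 share was 66.7% ± 5.09 and 55.6% ± 1.72 (n = 3 each). The GAB2 share was 31.8% ± 5.49 against 30.5% ± 1.93, a difference smaller than the spread of the wild-type libraries, and it changed sign without wild-type library 2 (1.90 in place of -1.27 percentage points). These shares include GAB1 and were not tested, and they depend on the transcript length assumed.

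**Figure D1:**
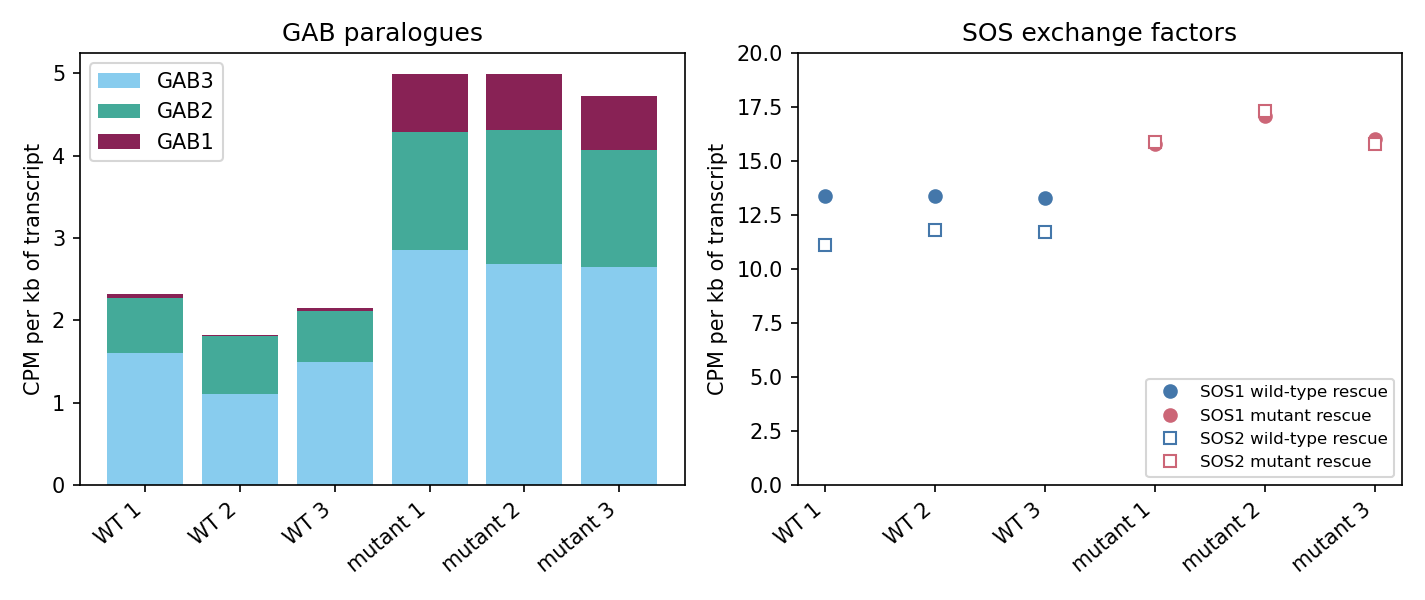
Left, stacked levels of GAB3, GAB2 and GAB1 (CPM per kilobase of longest transcript) in each of the 6 libraries; right, levels of SOS1 (filled circles) and SOS2 (open squares) in the same units, blue for wild-type and red for mutant rescue. The GAB stack reaches 4.72 to 4.99 in the mutant rescue against 1.83 to 2.31 in the wild-type rescue, and SOS2 lies below SOS1 in the wild-type rescue and overlaps it in the mutant rescue.

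GRB2, the SH2 and SH3 adaptor that joins receptors and GAB proteins to SOS, differed by a few percent. Its counts were 8451, 8526 and 8735 in wild-type and 8791, 9433 and 8929 in mutant libraries. Scaled levels were 318 ± 9.21 and 338 ± 11.9 CPM (n = 3 each), with mutant library 2 the highest and mutant library 1 close to the top of the wild-type range. The rise of 6.26% passed the test (log2 difference 0.09, SE 0.034; edgeR, adjusted p = 0.0253). The call was lost with DESeq2 (adjusted p = 0.0515), without wild-type library 1 (edgeR, adjusted p = 0.114) and without mutant library 3 (edgeR, adjusted p = 0.0503).

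SHC1, which carries the signal from receptors to GRB2, did not pass the test. It had 2919, 2711 and 2918 counts across the wild-type libraries, and 2781, 2835 and 2686 across the mutant libraries. The groups overlapped at 106 ± 1.74 and 103 ± 2.36 CPM (n = 3 each). The log2 difference was -0.03 (edgeR, adjusted p = 0.427), and its 95% interval of 0.929-fold to 1.03-fold bounds the size of any change. In the GENCODE annotation, exons of SHC1 overlap those of PYGO2 on the same strand and of an antisense gene, and it has the processed pseudogenes SHC1P1 and SHC1P2, so some of its reads could be shared. No exon of another annotated gene overlaps those of the other 6 members.

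Both exchange factors rose, SOS2 more than SOS1. SOS1 had 3120, 2973 and 3097 counts across the wild-type libraries, and 3609, 3919 and 3635 across the mutant libraries. That is 114 ± 0.121 against 139 ± 6.05 CPM (n = 3 each), a 1.22-fold rise without overlap (log2 difference 0.29, SE 0.036; edgeR, adjusted p = 4.32e-07). SOS2 had 1672, 1696 and 1750 counts across the wild-type libraries, and 2343, 2548 and 2319 across the mutant libraries. Its level went from 63.3 ± 2.09 to 89.8 ± 4.41 CPM, 1.42-fold, again without overlap (log2 difference 0.50, SE 0.043; edgeR, adjusted p = 1.32e-09). Per kilobase of the longest transcript, SOS1 made up 54.6%, 53.1% and 53.3% of the SOS pair in wild-type and 49.9%, 49.8% and 50.3% in mutant libraries. The share was lower in every mutant library than in every wild-type library, a mean difference of -3.69 percentage points (exact permutation test, two-sided, p = 0.1, the smallest that 3 libraries against 3 allow). With the median transcript length, SOS1 stood 4.24-fold above SOS2 in the wild-type rescue and 3.66-fold above it in the mutant rescue. The near-even balance of the pair thus depends on the length assumed. Against a minimum change of 1.2-fold, SOS2 passed and SOS1 did not (edgeR glmTreat, adjusted p = 7.59e-06 and 0.197).

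**Figure D2:**
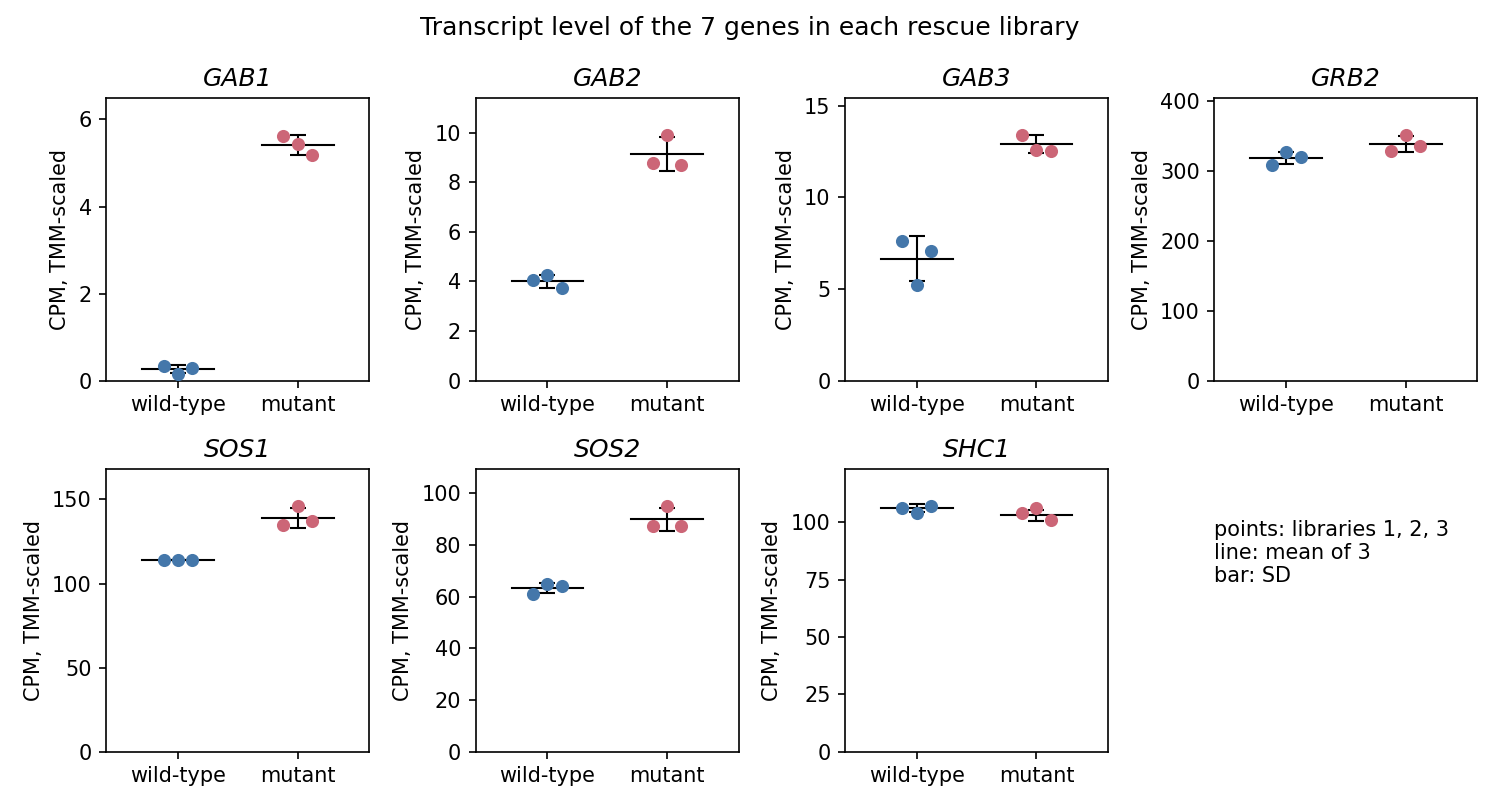
Level of each of the 7 genes in CPM after TMM scaling, 1 point per library, with the mean (line) and SD (bar) of 3 libraries per rescue; every vertical axis starts at 0. The rescues separate for GAB1, GAB2, GAB3, SOS1 and SOS2, lie close together for GRB2 and overlap for SHC1.

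GAB2, GAB3, SOS1 and SOS2 are members that rose and had a start site with no annotated exon in the stretch before it, so that stretch can be set beside their values. RefSeq windows (GRCh38.p14, 250 bases before to 50 after a start) were matched for GAB2, GAB3, GRB2, SOS1, SOS2 and SHC1, which is 6 of the 7 members, GAB1 being the other. The 250 bases before each such start are printed 5′ to 3′ on the gene's strand, with capitals marking GGGCGG (the GC box) or CCAAT (the CCAAT box) on either strand.
GAB2, chr11:78341920-78342169, minus strand: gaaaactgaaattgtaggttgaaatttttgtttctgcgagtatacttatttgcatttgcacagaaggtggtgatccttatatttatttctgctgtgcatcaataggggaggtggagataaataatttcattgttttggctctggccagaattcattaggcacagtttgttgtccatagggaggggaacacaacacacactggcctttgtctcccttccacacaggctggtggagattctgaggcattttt
GAB3, chrX:154751078-154751327, minus strand: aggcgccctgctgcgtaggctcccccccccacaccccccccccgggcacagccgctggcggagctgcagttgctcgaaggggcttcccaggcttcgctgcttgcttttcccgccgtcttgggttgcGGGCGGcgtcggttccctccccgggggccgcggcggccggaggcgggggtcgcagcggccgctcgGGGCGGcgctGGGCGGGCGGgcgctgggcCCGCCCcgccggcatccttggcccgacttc
SOS1, chr2:39124869-39125118, minus strand: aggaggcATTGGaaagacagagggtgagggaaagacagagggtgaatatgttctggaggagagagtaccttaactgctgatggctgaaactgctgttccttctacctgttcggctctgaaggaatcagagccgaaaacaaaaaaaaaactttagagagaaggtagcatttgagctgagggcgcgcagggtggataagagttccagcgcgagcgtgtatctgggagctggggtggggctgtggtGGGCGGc
SOS1, chr2:39121052-39121301, minus strand: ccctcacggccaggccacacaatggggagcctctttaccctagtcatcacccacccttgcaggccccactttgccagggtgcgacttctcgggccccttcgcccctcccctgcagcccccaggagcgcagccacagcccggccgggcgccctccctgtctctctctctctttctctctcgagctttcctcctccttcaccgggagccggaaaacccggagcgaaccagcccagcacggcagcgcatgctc
SOS2, chr14:50231579-50231828, minus strand: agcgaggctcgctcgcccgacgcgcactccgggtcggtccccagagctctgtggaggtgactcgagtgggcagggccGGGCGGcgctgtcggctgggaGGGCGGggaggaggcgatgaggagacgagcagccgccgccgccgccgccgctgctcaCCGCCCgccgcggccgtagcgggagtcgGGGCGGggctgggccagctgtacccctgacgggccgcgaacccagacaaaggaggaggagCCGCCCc
The GAB2 stretch and the SOS1 stretch at 39121052 hold neither motif. The printed GAB2 stretch belongs to the more downstream of its start sites. The window of the upstream GAB2 start, not printed because an annotated GAB2 exon overlaps it, holds GGGCGG 5 times.

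The GC box GGGCGG, read on both strands, was in 6 of the 10 member windows and in at least 1 window of each of the 6 genes, against 45.0% of all windows of this length. CCAAT was in 3 of 10, against 34.6%. The letters TTCCTAGAA, the core of the motif known for BCL6, were in 0 of 10 windows, against 0.373% of all. Its looser forms TTCCNNGAA and TTCNNNGAA, the second of which contains the first, were likewise in 0 of 10, against 4.45% and 7.66%. These matches describe letters within the windows and were not tested.

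Among the 6 members tested, 5 passed, all of them higher, and 1 did not. The background in this comparison is high: 70.1% of the 12406 tested genes were called, 35.4% higher and 34.8% lower. The groups did not overlap for 72.4% of tested genes. With so wide a background, the count of members called is not in itself a result about them, and the sizes say more. The median absolute log2 difference over all tested genes was 0.29. GAB2 exceeded 93.1% and GAB3 89.6% of tested genes in absolute change, SOS2 72.3%, SOS1 50.4%, GRB2 16.7% and SHC1 5.9%. Against a change of at least 1.2-fold, GAB2, GAB3 and SOS2 passed, beside 37.0% of all tested genes (edgeR glmTreat).

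**Figure D3:**
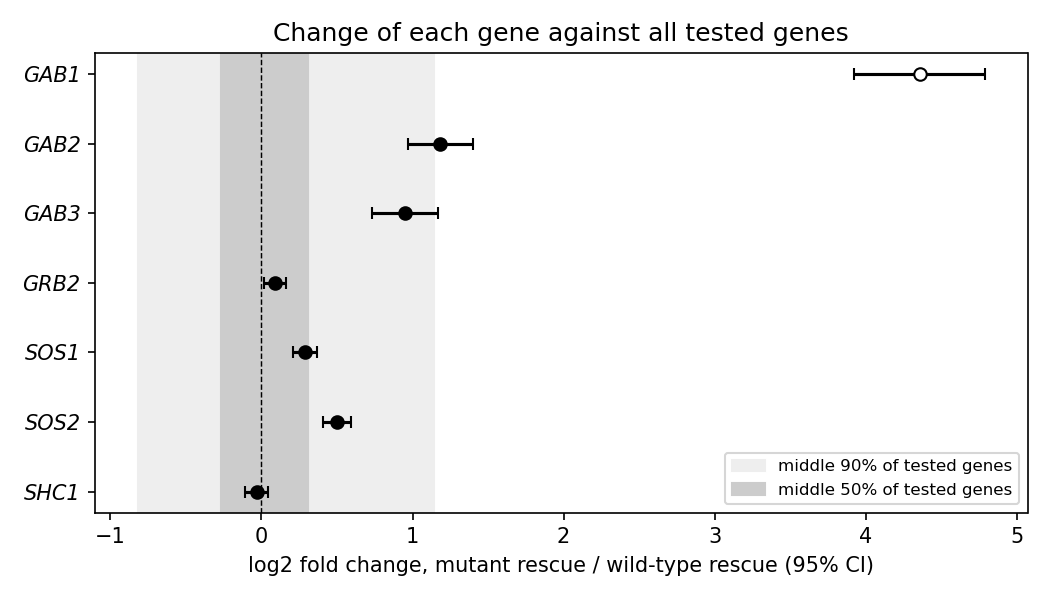
Log2 fold change of each gene, mutant over wild-type rescue, with 95% intervals from the quasi-likelihood fit. GAB1 is open because it was chosen for its rise and not tested, and its interval makes no allowance for that choice. The dark band holds the middle 50% of tested genes (-0.27 to 0.31) and the light band the middle 90% (-0.82 to 1.14): GAB2 lies at its upper edge, SOS2 outside the dark band, and GRB2 and SHC1 near 0.

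GRB2 stood first among the 7 genes and the GAB genes last with either transcript length, while the order between them depended on the length. In CPM per kilobase of the longest transcript, GRB2 was first (85.3 ± 2.47 with wild-type and 90.7 ± 3.19 with mutant BCL6, n = 3 each), followed by SHC1 (30.4 ± 0.501 and 29.7 ± 0.679). SOS1 (13.4 ± 0.0142) came before SOS2 (11.5 ± 0.38) in the wild-type rescue, whereas in the mutant rescue both stood at 16.3 and their libraries overlapped. All other neighbours in this order were separate in every library. With the median transcript length, SOS1 (182 ± 0.194 and 222 ± 9.67) instead stood above SHC1 (81.0 ± 1.34 and 79.2 ± 1.81), and was 4.24-fold above SOS2 in the wild-type and 3.66-fold above it in the mutant rescue, with no overlap. With the longest transcript, GAB3 was 8.19-fold below SOS2 in the wild-type rescue and 5.99-fold below SOS1 in the mutant rescue. The GAB family together, GAB1 included, came to 2.46 ± 0.357 per 100 of GRB2 in the wild-type rescue and 5.41 ± 0.234 in the mutant rescue. SOS1 plus SOS2 came to 29.2 ± 0.414 and 36.0 ± 0.537. Among the mutant libraries, number 2 had the highest CPM of GAB2, GRB2, SOS1, SOS2 and SHC1, while GAB1 and GAB3 were highest in number 1.

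The genes whose pattern over the 6 libraries was most like that of GAB1 were RAG1, CSRP2, LINC00163, DNTT and PRR5L. Likeness was the root mean square difference in centred log2 CPM, from 0.252 for RAG1 to 0.308 for PRR5L, out of 11622 candidates. RAG1, a recombinase gene, had 1050, 975 and 1061 counts across the wild-type libraries, and 17251, 19575 and 17671 across the mutant libraries. DNTT, which encodes the template-free polymerase of V(D)J joining, had 2, 0 and 0 counts against 39, 50 and 35. PRR5L, an mTORC2-binding protein gene, had 5, 3 and 6 against 89, 71 and 65. LINC00163 (8, 6 and 8 counts in the wild-type libraries), DNTT and PRR5L passed the filter through the mutant rescue alone, as GAB1 did. With only 2 groups of libraries, this measure mainly ranks genes by the size of their difference. DNTT is the least certain of the 5: with a prior count of 0.5 in place of 2 its rank went from the fourth to 53. With that prior count PRR5L had rank 1, LINC00163 rank 2, RAG1 rank 3 and CSRP2 rank 4.

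Beyond the 7 members, 9 lists of pathway genes held 125 names, of which 86 were tested. Of these 44 rose, 27 fell and 15 stayed short of the threshold (edgeR, adjusted p under 0.05), which is 82.6% called against 70.1% of all tested genes. Against a change of at least 1.2-fold the counts were 23 and 10 (edgeR glmTreat), together a share close to the 37.0% of all tested genes that passed. The 37 listed genes that the filter removed had at most 18 counts in any library.

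Effectors that bind GAB proteins moved in both directions. Of 13 tested, 8 rose and 4 fell, with 1 short of the threshold (92.3% called, against 70.1% of all tested genes, median log2 difference 0.12, against 0.01). Against a change of at least 1.2-fold, 3 of the 13 passed as higher and 1 as lower, where 37.0% of all tested genes passed (edgeR glmTreat). PTPN11, the main phosphatase partner of GAB1 and GAB2, fell 1.23-fold, from 224 ± 0.947 to 182 ± 6.27 CPM (n = 3 each, edgeR, adjusted p = 8.29e-08). It did not pass against the 1.2-fold minimum (edgeR glmTreat, adjusted p = 0.133). Of the phosphoinositide 3-kinase catalytic subunits, PIK3CD, the leukocyte form, rose 1.93-fold (122 ± 5.37 to 236 ± 4.66 CPM) while PIK3CB fell 1.52-fold (62.6 ± 2.59 to 41.2 ± 1.36 CPM). INPP5D, the lipid phosphatase SHIP1 that opposes this kinase, rose 1.50-fold to 467 ± 5.44 CPM.

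Other adaptors that rose included GRAP, and those among the docking proteins LAT2 and DOK3. Of 7 tested GRB2 and SHC family adaptors and SH2 adaptors, 3 rose and 1 fell, with 3 short of the threshold (57.1% called against 70.1% of all tested genes, median 0.03). The number that fell was 3 without mutant library 1, with the replicate block or with no filter on low counts, and 2 without wild-type library 2, with DESeq2 or with limma-voom. The 3 that rose were GRAP, SHCBP1 and SH2B3. GRAP, the lymphoid relative of GRB2, rose 1.65-fold (63.3 ± 1.83 to 105 ± 6.16 CPM). The SHC1-binding gene SHCBP1 rose 1.26-fold and the inhibitory adaptor gene SH2B3 1.19-fold, while SH2B2 fell 1.13-fold. GRAP2, SHC2, SHC3 and SHC4 were too low to be tested. Of 15 other docking proteins and ubiquitin ligases tested, 10 rose and 2 fell, with 3 short of the threshold (80.0% called, median 0.39). The number that fell was 1 in 4 of the fits that leave out a library (wild-type 2 or 3, mutant 2 or 3). LAT2, a transmembrane adaptor of B and mast cells, rose 2.34-fold (28.8 ± 0.566 to 67.6 ± 2.89 CPM; edgeR, adjusted p = 2.64e-15). The insulin receptor substrate gene IRS1 rose 1.43-fold, the inhibitory adaptor gene SIT1 1.35-fold and the ligase gene CBL 1.31-fold. Chosen after their values were seen, DOK3, an inhibitory adaptor of B cell receptor signalling, rose 2.53-fold (85.7 ± 7.05 to 216 ± 16.7 CPM), and DOK4 had 9, 16 and 10 counts against 38, 56 and 51. In DOK4 only wild-type library 2 reached the level that the filter asks for, so this gene was tested through the mutant rescue, where it is high.

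**Figure D4:**
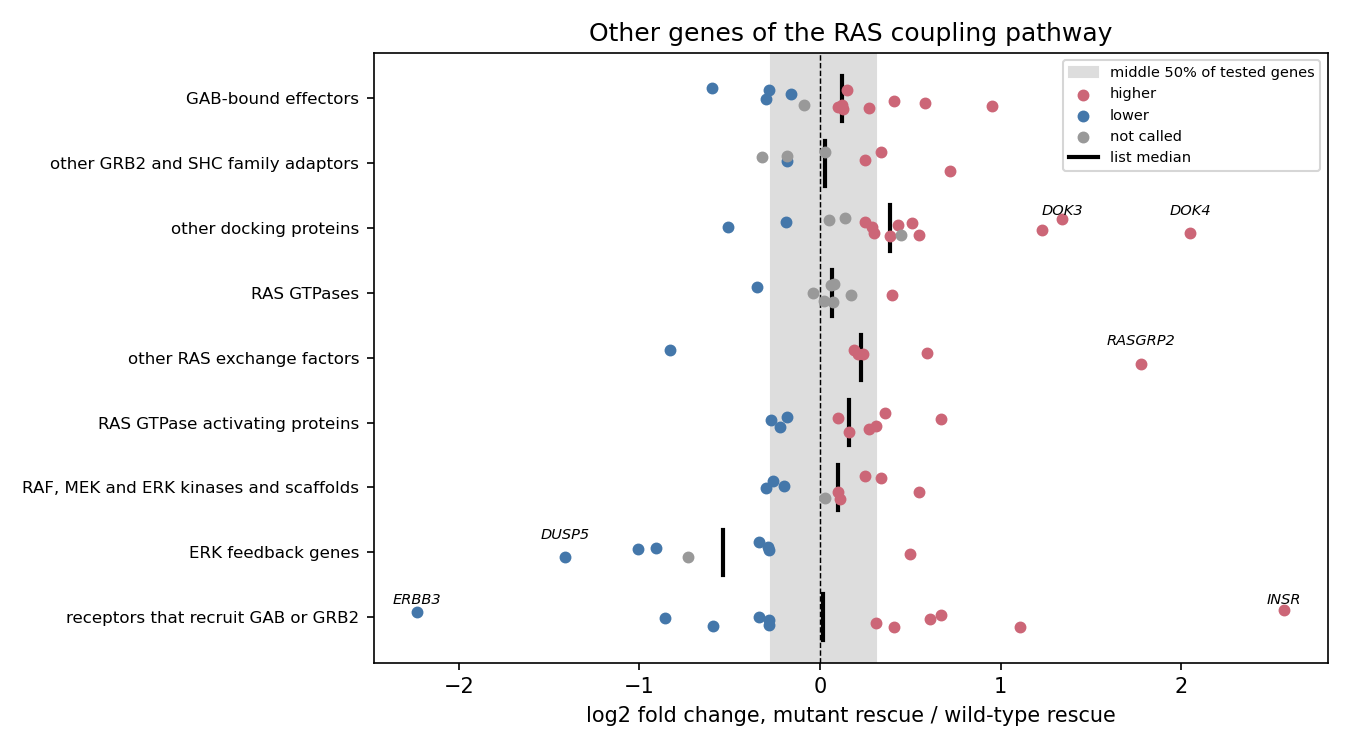
Log2 fold change, mutant over wild-type rescue, of each tested gene on 9 pathway lists; red and blue points passed the test as higher and lower, grey points did not, black lines are list medians and the band holds the middle 50% of tested genes. RAS GTPases cluster near 0, RASGRP2 lies far to the right of the other exchange factors, and ERBB3 and INSR mark the extremes among receptors.

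Transcripts of RAS itself mostly did not pass the test. Of 8 tested RAS family GTPases, 1 rose and 1 fell, with 6 short of the threshold, while 70.1% of all tested genes were called (median 0.06). HRAS (61.9 ± 0.677 and 65.2 ± 2.23 CPM) and NRAS, named after its values were seen (156 ± 4.86 and 163 ± 8.27 CPM), did not pass (n = 3 each; edgeR, adjusted p = 0.0979 and 0.197). HRAS passed with library size scaling in place of TMM, with at least 1 CPM required in all libraries, and without mutant library 2 (edgeR, adjusted p = 0.0266, 0.0431 and 0.0454). The number of GTPases called higher was 4 with library size scaling, 3 without mutant library 1, and 2 without mutant library 2, with the replicate number as a block or with at least 1 CPM required, in place of 1. RIT1 rose 1.32-fold, and RAP1A, a GTPase of integrin control, fell 1.28-fold.

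Among the exchange factors other than SOS1 and SOS2, RASGRP2 changed most. Of 6 tested, 5 rose and 1 fell (median 0.23), where 35.4% of all tested genes rose and 34.8% fell, and against a change of at least 1.2-fold 2 of the 5 still passed. RASGRP2, a calcium- and diacylglycerol-responsive factor that acts mainly on RAP1, rose 3.44-fold. It had 488, 407 and 454 counts across the wild-type libraries, and 1589, 1404 and 1609 across the mutant libraries (edgeR, adjusted p = 3.04e-15). RASGRP1, which activates RAS in lymphocytes, rose 1.50-fold and RAPGEF1 1.16-fold, while RASGRF1 fell 1.77-fold at a low level (4.54 ± 0.515 to 2.57 ± 0.408 CPM). Of 9 tested genes listed as GTPase activating proteins, most of which switch RAS off, 6 rose and 3 fell (median 0.16). Against at least 1.2-fold 1 passed as higher and 0 as lower. NF1, the neurofibromin gene, rose 1.59-fold (60.6 ± 1.55 to 96.7 ± 2.49 CPM), RASAL1 rose 1.24-fold and DAB2IP 1.21-fold, and RASA3 fell 1.17-fold.

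Downstream of RAS, the MEK genes were lower in the mutant rescue, as were several genes of ERK feedback. Of 9 RAF, MEK and ERK genes and scaffolds tested, 5 rose and 3 fell, with 1 short of the threshold (88.9% called against 70.1% of all tested genes, median 0.10). Against a change of at least 1.2-fold 1 passed as higher and 0 as lower, so neither MEK gene passed. The number that rose was 2 with DESeq2 or without wild-type library 1, and 3 without wild-type library 2, mutant library 1 or mutant library 3. The scaffold gene SHOC2 rose 1.26-fold, and KSR1, a scaffold gene at a low level and named after its values were seen, 1.47-fold (1.11 ± 0.276 to 1.63 ± 0.159 CPM), while MAP2K1 and MAP2K2, the MEK genes, fell by 0.30 and 0.26 on the log2 scale. Of 8 tested genes that ERK signalling is known to induce or that restrain it, 1 rose and 6 fell, with 1 short of the threshold (median -0.53, or -0.29 over the 5 with a mean count of at least 50), where 34.8% of all tested genes fell. With at least 1 CPM required in all libraries, 4 fell. Chosen after its values were seen, ETV5 is among the 6 at 18, 18 and 23 counts against 6, 12 and 11, where mutant library 1 was below the filter level. DUSP5, an ERK phosphatase gene, fell 2.66-fold (9.39 ± 0.862 to 3.54 ± 0.119 CPM), SPRED2 fell 1.26-fold and SPRED1 1.22-fold, whereas the ERK phosphatase gene DUSP6 rose 1.41-fold (10.5 ± 0.68 to 14.8 ± 0.434 CPM). SPRY2, SPRY3 and SPRY4 had 0 counts in every library.

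Receptors known to recruit GAB or GRB2 were split, with 6 of 12 tested higher and 6 lower (median 0.02, or -0.28 over the 10 with a mean count of at least 50). Of all tested genes, 35.4% were called higher and 34.8% lower, so calls in both directions are common in this comparison. INSR and FGFR1 are among the 6 higher and were tested only through the mutant rescue, where they are high; with at least 1 CPM required in all libraries 4 were higher and 6 lower. ERBB3, a receptor of the EGFR family, fell 4.71-fold, from 414, 410 and 431 counts to 91, 96 and 78 (edgeR, adjusted p = 1.20e-14). MET, the hepatocyte growth factor receptor with a direct GAB1 binding site, fell 1.81-fold, from 17.8 ± 0.777 to 9.82 ± 0.732 CPM. INSR had 4, 4 and 2 counts against 21, 22 and 18, and FGFR1, named after its values were seen, 9, 7 and 8 against 17, 22 and 13. EGFR, KIT and KDR had 0 counts in all libraries. On the 5-gene epithelial marker list, EPCAM ranged from 423 to 437 counts with wild-type rescue and from 93 to 109 with mutant rescue, while KRT8, KRT18, KRT19 and CDH1 had 0 or 1 count in each. The list summed to 15.5 to 16.8 and 3.47 to 4.06 CPM, and its part in the receptor values was not tested.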

How the data were processed

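The deposited table holds raw counts of reads for each gene symbol in 6 samples. The tools named per the submitters' processing notes are CASAVA 1.8.2, STAR and edgeR, with build hg19. For the read counter, annotation and strand setting, nothing is given in the sources used here, so reads of overlapping genes cannot be assigned with certainty. Per the labels' protocols, RNA was extracted with Trizol for TruSeq libraries.

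Counts were analysed in R 4.3.3 with edgeR 4.0.16: filterByExpr kept 12406 of 23250 genes (all 7 members), libraries were scaled with TMM, and glmQLFit (robust) and glmQLFTest compared the mutant with the wild-type rescue in 1 model without covariates, with Benjamini-Hochberg adjustment over all tested genes and a threshold of 0.05. Intervals are 95%. Intervals from counts cover counting error only. CPM per kilobase used the longest GENCODE v29 transcript by symbol. The test was tried on simulated counts first. Alternatives were other scalings, DESeq2 1.42.0, limma-voom 3.58.1, other filters, a replicate block, glmTreat, another transcript length and leaving out each library; medians over genes with a mean count of at least 50 were added after the data were seen.

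The members and lists were chosen with earlier results of these data known. The text names all members, up to 4 genes per list with the smallest p, the 5 genes most like GAB1 (mean count of at least 20), and others where it says so. Some genes that this rule would name are not reported here.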

Additional observations from a re-analysis of the deposited data

How the results depend on the processing

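GAB2, GAB3, SOS2 and SHC1 kept their direction and their side of the threshold under every alternative in which they were fitted, and SOS1 under all but 1. Against a change of at least 1.2-fold (edgeR glmTreat), 4585 genes were called in place of 8702, and the listed pathway genes called were 23 higher and 10 lower. SOS1 (log2 difference 0.29) and GRB2 (0.088) did not pass. GRB2 lay below 1.2-fold, at 1.06-fold. SOS1, at 1.22-fold, lay just above it, and the test did not resolve the excess. GRB2 also missed the threshold with DESeq2 (log2 difference 0.082, adjusted p = 0.0515). It missed it as well without wild-type library 1 and without mutant library 3 (edgeR, adjusted p = 0.114 and 0.0503). Over the 6 fits that leave out 1 library the GRB2 log2 difference ran from 0.059 to 0.11. The GAB1 log2 difference ran from 4.11 to 4.56 over those fits, and GAB1 was not fitted with a minimum of 1 CPM in all libraries. With the median in place of the longest transcript length, the SOS1 share of the SOS pair differed by -2.39 percentage points and the GAB2 share of the GAB family by -15.8. Leaving out 1 library at a time, the GAB2 share difference ran from -2.90 to 1.90, its sign changing without wild-type library 2. Wild-type and mutant libraries share replicate numbers, and the correlations of their deviations were 0.136, 0.172 and -0.055 for numbers 1, 2 and 3. Wild-type libraries 1 and 2 correlated best with their own number (crossed values -0.181 and -0.174), and wild-type library 3 did not. Whether shared numbers mark pairs was not tested. With the replicate number as a block, 9285 genes were called in place of 8702, and GRB2 had an adjusted p of 6.50e-04 (edgeR). GAB1 is limited by depth, at 4 to 9 counts per wild-type library.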

Other observations

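Some listed genes too low for the test still differed in their counts. They were chosen after their values were seen and are given as values only. RASAL2, a GTPase activating protein gene for RAS, had 0, 1 and 1 counts across the wild-type libraries, and 10, 10 and 7 across the mutant libraries. SHC4, a paralogue of SHC1, had 2, 0 and 0 counts against 10, 7 and 3. KSR2, a scaffold gene of the RAF and MEK kinases, went the other way, with 10, 17 and 9 counts against 3, 3 and 2.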
